A study of Mus musculus with 8 samples.

Results

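The enzymes that clear asymmetric dimethylarginine (ADMA) and the protein arginine methyltransferases were examined in mouse lung. The rows of the count table whose Entrez identifiers belong to Ddah1, Ddah2, Agxt2, Carm1, Prmt1, Prmt2, Prmt3, Prmt5, Prmt6 and Prmt7 were taken, which gave 10 of 23469 genes. Of these, 9 were counted in every library, and Agxt2 had no count in any of them. No gene of the 10 passed the threshold of the test, an adjusted p under 0.05 by edgeR's quasi-likelihood test, in any of the 5 comparisons made. Ddah1 came closest to it, in house dust mite-treated against PBS-treated DDAH1-transgenic mice (adjusted p = 0.0589), whose levels, in CPM (counts scaled to libraries of equal size), were 34.9 and 33.4 in the former and 76.9 and 53.8 in the latter.

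Nitric oxide synthases are blocked by ADMA, a by-product of protein turnover that is freed from arginine residues methylated after translation. Type I arginine methyltransferases (PRMT1, PRMT2, PRMT3, CARM1, which is also called PRMT4, and PRMT6) place that mark, whereas PRMT5 is a type II enzyme that makes the symmetric form and PRMT7 is a type III enzyme that makes monomethylarginine. PRMT8 is a type I enzyme as well and is not among the 10 genes. Most ADMA is degraded inside cells by dimethylarginine dimethylaminohydrolase (DDAH), and AGXT2, a mitochondrial aminotransferase, offers another route.

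C57BL/6 wild type mice (WT) and DDAH1-transgenic mice (TG) received PBS or house dust mite extract (HDM) into the trachea as 3 doses a week over 3 weeks (100 µg HDM in a volume of 50 µl), and lungs were taken 24 hours after the last dose. Each of the 4 groups (WT PBS, WT HDM, TG PBS and TG HDM) was 1 pool of lung RNA from 4 mice, sequenced as 2 libraries. All SDs, standard errors and p-values therefore cover the spread between libraries of a pool and not that between mice. The promoter and the species of the DDAH1 transgene, and the age and sex of the mice, are not given in the sources used here. Reads of the transgene add to the Ddah1 count to the extent that they align to the mouse sequence.

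Total counts lay between 5694928 (TG HDM replicate 1) and 11929374 (WT PBS replicate 2). The libraries differed in ways that bear on the results below. Xist was at 11.3 to 20.8 CPM in the 4 PBS libraries and at 2048 to 3040 in the 4 HDM libraries, and the Y-linked gene Ddx3y was at 58.7 to 69.0 and at 0.179 to 0.301, so that treatment and the sex of the pooled mice cannot be told apart in any HDM against PBS comparison. The TG against WT comparisons were within PBS or within HDM and had like levels of both genes. Lung epithelial markers such as Sftpc and Scgb1a1 were present in all libraries. The summed level of 9 skeletal muscle markers was 3.82 to 8.57 in WT PBS and 116 to 247 in the other groups. That of 6 endothelial markers was 956 to 1268 in TG HDM, 1469 to 1501 in WT HDM, 1951 to 1959 in WT PBS and 2309 to 2346 in TG PBS. In whole lung, fewer cells of a type and less RNA per cell cannot be told apart.

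Ddah1 (Entrez 69219) spans chr3:145758692-145894277 on the plus strand of GRCm38, with 6 exons in a transcript of 3764 bases. Ddah2 (Entrez 51793) spans chr17:35059035-35062099 on the plus strand, with 7 exons in 1342 bases. Each has a coding region of 855 bases. No exonic base of either overlapped another annotated gene, and no stretch of 50 bases of either transcript occurred in another gene, so that their reads are not shared with an annotated copy. The study's designed RT-qPCR primers are shown because they mark the exons by which the 2 genes are told apart at the bench. Each forward primer spans the junction of exons 2 and 3, each reverse primer lies in exon 4, and each of the 4 matched exactly in its own gene only.
Ddah1 forward: gacgtcctattcacaggca
Ddah1 reverse: caatcaggttgggtccg
Ddah2 forward: ggttgatggagtgcgtaaa
Ddah2 reverse: gctcctcgatgattggtc
The sequences are written 5′ to 3′, and the expected products are 172 bases for Ddah1 and 150 bases for Ddah2.

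The start sites of the clearing enzymes are shown because 2 of these genes were counted in every library and the third in none. RefSeq (GRCm38.p6) gave a window from 250 bases before to 50 bases after the start for 9 of the 10 genes. Carm1 had no entry. Capitals mark CG dinucleotides, and all windows below are 300 bases, 5′ to 3′ on the plus strand.
Ddah1, chr3:145758442-145758741: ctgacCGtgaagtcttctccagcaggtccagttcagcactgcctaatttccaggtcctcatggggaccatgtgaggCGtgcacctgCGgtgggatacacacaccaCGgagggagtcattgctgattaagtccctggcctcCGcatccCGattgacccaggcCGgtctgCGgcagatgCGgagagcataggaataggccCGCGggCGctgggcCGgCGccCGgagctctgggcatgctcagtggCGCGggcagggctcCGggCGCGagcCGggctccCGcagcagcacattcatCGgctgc
Ddah2, chr17:35058785-35059084: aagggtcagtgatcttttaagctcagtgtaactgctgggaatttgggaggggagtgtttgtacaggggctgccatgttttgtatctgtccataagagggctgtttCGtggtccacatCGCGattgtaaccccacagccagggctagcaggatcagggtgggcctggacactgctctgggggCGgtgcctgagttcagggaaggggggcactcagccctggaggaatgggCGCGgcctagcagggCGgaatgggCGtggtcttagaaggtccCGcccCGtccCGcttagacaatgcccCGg
Agxt2, chr15:10358283-10358582: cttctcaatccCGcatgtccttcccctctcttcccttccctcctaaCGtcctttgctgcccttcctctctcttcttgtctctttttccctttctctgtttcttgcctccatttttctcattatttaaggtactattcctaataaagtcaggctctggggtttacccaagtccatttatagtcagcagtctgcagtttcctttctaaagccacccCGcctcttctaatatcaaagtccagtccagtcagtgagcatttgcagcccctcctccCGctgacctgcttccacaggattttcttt
The Ddah1 window held 23 CG dinucleotides at a GC content of 65.7%, and the Ddah2 window held 12 at 59.7%. The Agxt2 window, the first of 2 listed for this gene, held 4 at 47.0%. The median of all 32851 windows was 7 CG dinucleotides and 52.7% GC. The methyltransferase windows held between 16 (Prmt5 and Prmt6) and 39 (Prmt7) CG dinucleotides. The letters TATAAA, searched on both strands, were found in the Agxt2 and Prmt2 windows and in 13.6% of all windows. GGGCGG was found in the Ddah2, Prmt1, Prmt2, Prmt3 and Prmt7 windows and in 35.7% of all windows. These are descriptions of the letters and not of sites in use.

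Levels below are CPM, with all 8 libraries scaled together by edgeR's TMM method, and the 2 values of a group are replicates 1 and 2. Ddah1, the enzyme named in the transgene, had 47.7 and 34.3 CPM in WT PBS and 43.1 and 44.7 in WT HDM. It had 76.9 and 53.8 in TG PBS and 34.9 and 33.4 in TG HDM. Both TG PBS libraries stood above the other 6, and TG HDM replicate 2 was the lowest of all. The higher TG PBS library was 1.43 times the lower one, a spread above the 1.22-fold median for genes of 200 to 800 counts in that group and below the 90th percentile of 1.69.

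In PBS-treated mice, the log2 fold change of Ddah1 in TG against WT was 0.66 (SE 0.26, adjusted p = 0.358, edgeR), with no overlap of the groups. It was 0.39 without TG PBS replicate 1 and 0.93 without WT PBS replicate 1. In HDM-treated mice it was -0.32 (SE 0.29, adjusted p = 0.637, edgeR), again with no overlap but with the libraries labelled TG below those labelled WT. The transgenic label was thus not seen as a higher Ddah1 level in the HDM-treated pool. The interaction, which is the TG against WT difference under HDM less that under PBS, was -1.04 on the log2 scale (SE 0.39, adjusted p = 0.216, edgeR).

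By RT-qPCR, the study reported lower Ddah1 and Ddah2 in the lungs of WT mice after HDM. In these libraries, the log2 fold change of Ddah1 in HDM against PBS was 0.10 in WT mice (SE 0.26, adjusted p = 0.886, edgeR). The WT groups overlapped. In TG mice it was -0.91 (SE 0.29, adjusted p = 0.0589, edgeR), with means of 34.2 ± 1.94 and 64.5 ± 15.9 CPM (SD, n = 2 libraries, scaled within that comparison) and no overlap. This value was past the threshold with DESeq2 (adjusted p = 0.0222), without the low-count filter (0.0249), with all 8 libraries in one edgeR fit (0.0255) and with the replicate number as a block (0.0323). It was -0.64 without TG PBS replicate 1, with an adjusted p of 0.393, and no fit that left out a library passed the threshold. The endothelial marker sum was also lowest in TG HDM and highest in TG PBS. Cdh5 was its largest part (399 and 537 in TG HDM, 1148 and 1185 in TG PBS), and Pecam1, Tek and Kdr went the same way. Cldn5 (56.9 and 92.3 in TG HDM, 57.8 and 48.9 in TG PBS) and Vwf (101 and 201, 192 and 203) overlapped. Most other marker sums were lower in TG HDM than in TG PBS as well, namely both alveolar, club, fibroblast, skeletal muscle, cardiac muscle and erythroid. Those of leukocytes, macrophages, eosinophils and adipocytes were higher, and those of smooth muscle and thymocytes overlapped. The part of any of these in the Ddah1 levels was not tested. Treatment and sex cannot be told apart between these groups.

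Ddah2, the second member of the DDAH family, had 17.3 and 24.4 CPM in WT PBS, 14.8 and 17.4 in WT HDM, 20.2 and 16.6 in TG PBS and 21.0 and 16.1 in TG HDM. Each pair of groups overlapped. In the 4 comparisons between groups, the log2 fold changes lay between -0.37 (WT HDM against WT PBS, SE 0.36, adjusted p = 0.639, edgeR) and 0.24 (TG HDM against WT HDM, SE 0.41, adjusted p = 0.829). The latter turned to -0.09 with an offset for gene length. The value was 0.04 in TG HDM against TG PBS (SE 0.40, adjusted p = 0.971), and its sign changed with DESeq2 and with the length offset.

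The ratio of the DDAH genes within a library needs no scaling between libraries. Levels per kilobase do not correct for the dependence of log2 fold changes on transcript length, for which the length offset was used. The Ddah1 transcript is longer than that of Ddah2. In TG HDM against TG PBS, the length offset moved the log2 fold change of Ddah2 from 0.04 to -0.54. That of Ddah1 moved from -0.91 to -0.92, so the 2 genes lay closer together with the offset. Ddah2 over Ddah1, each per kilobase of transcript, was 0.735 and 0.865 in TG PBS and 1.69 and 1.35 in TG HDM. It was 1.02 and 2.0 in WT PBS and 0.966 and 1.09 in WT HDM. The TG HDM and TG PBS libraries did not overlap. The WT groups overlapped, since the WT PBS libraries lay far apart. Which of the genes stood higher rests on the length used. The study describes its counts as reads over coding regions, but RNAs without one, such as Xist, were counted too. Which length is the closer match is thus not known. Per kilobase of coding region, a scale added after seeing the data, the ratio was 0.262 to 0.712. By it, Ddah1 was above Ddah2 in all 8 libraries. TG HDM had 0.601 and 0.483, and TG PBS had 0.262 and 0.308. This ratio is the former one times a constant, so the order of the libraries could not change and is no second test.

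**Figure D1:**
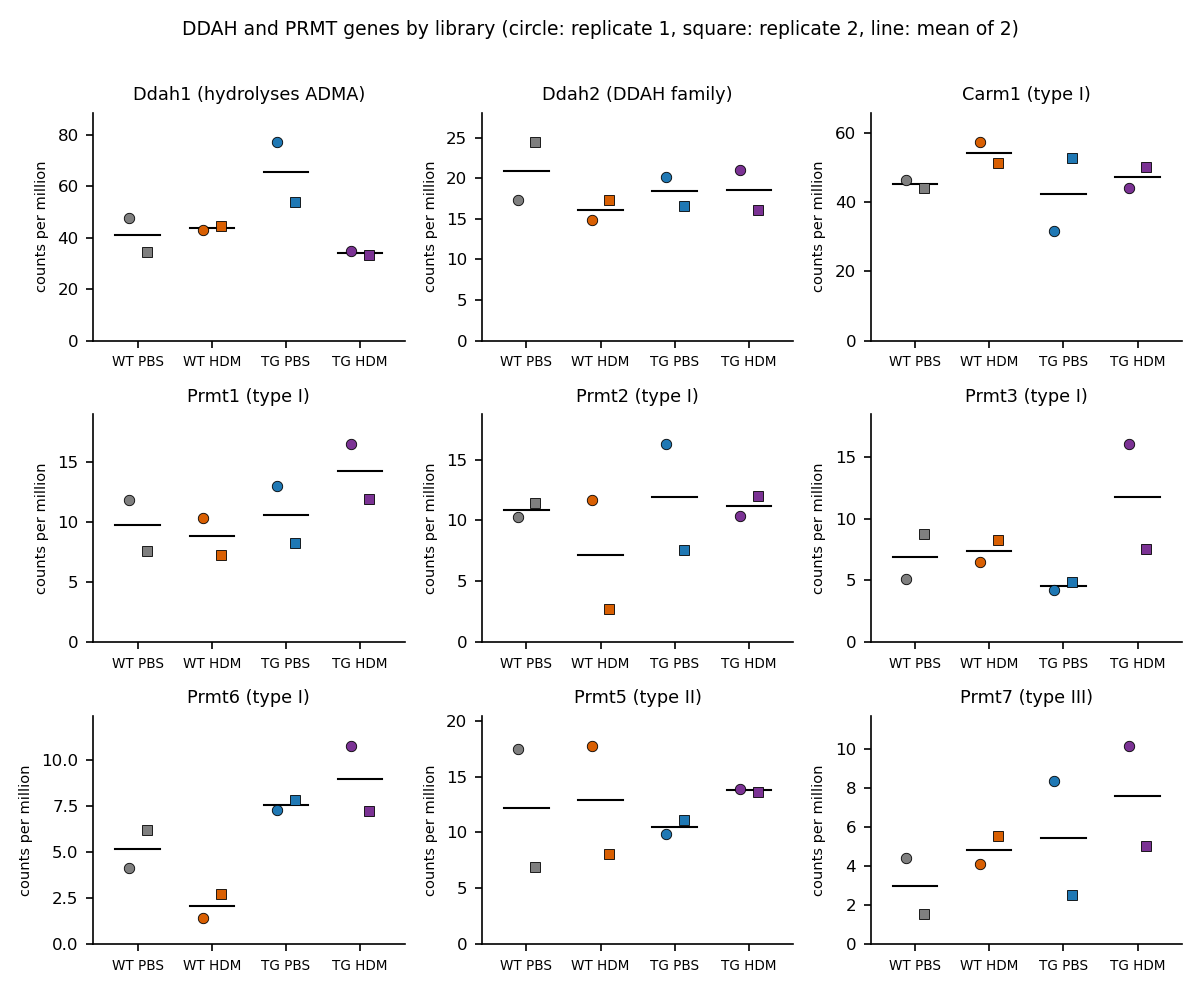
CPM (vertical axis, linear, from 0) of the 9 counted genes in each library of the 4 groups. Points are libraries and lines are the means of 2. Ddah1 was highest in both TG PBS libraries (76.9 and 53.8), and Prmt6 was lowest in both WT HDM libraries (1.43 and 2.71).

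AGXT2 has a known role in liver and kidney. Agxt2 (Entrez 268782, chr15:10358516-10410158, plus strand) had 0 counts in all 8 libraries. A count of 0 allows up to 3 counts, or 0.232 to 0.449 CPM depending on the library, and this limit covers counting error only. The summed level of 4 hepatocyte markers was at most 3.29 CPM in any library.

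Among the type I methyltransferases, Carm1 (a coactivator that methylates histone H3 and splicing factors) had the highest counts. It had 46.5 and 44.2 CPM in WT PBS, 57.3 and 51.3 in WT HDM, 31.8 and 52.7 in TG PBS and 44.2 and 50.2 in TG HDM. The WT HDM libraries stood above the WT PBS libraries, with a log2 fold change of 0.26 (SE 0.23, adjusted p = 0.594, edgeR). The WT HDM and TG HDM libraries did not overlap either, at -0.16 (SE 0.27, adjusted p = 0.823). Of its exonic bases, 24.4% are shared with Yipf2 on the opposite strand, and use of strand in the counting is not stated. The share of its coding bases was not computed. It is thus not known whether part of the Carm1 counts came from Yipf2. Yipf2 had 21.4 and 20.3 CPM in WT PBS and 23.8 and 32.2 in WT HDM. It had 10.1 and 25.15 in TG PBS and 29.8 and 27.6 in TG HDM. The part of Yipf2 in the Carm1 levels was not tested.

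Prmt1, which places most asymmetric dimethylarginine in mammalian cells, had 11.9 and 7.59 CPM in WT PBS, 10.4 and 7.23 in WT HDM, 13.0 and 8.24 in TG PBS and 16.5 and 11.9 in TG HDM. The TG HDM libraries were above the WT HDM libraries and overlapped those of TG PBS. The log2 fold change of TG HDM against WT HDM was 0.73 (SE 0.50, adjusted p = 0.511, edgeR). Against TG PBS it was 0.44 (SE 0.49, adjusted p = 0.619), and this turned to -0.05 with the length offset.

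Prmt2, a methyltransferase with an SH3 domain and weak activity, had 10.3 and 11.4 CPM in WT PBS, 11.7 and 2.71 in WT HDM, 16.3 and 7.61 in TG PBS and 10.3 and 12 in TG HDM. WT HDM replicate 2 was far below the other 7 libraries. Its CPM differed 4.32-fold between the WT HDM libraries, against a median of 1.45 and a 90th percentile of 2.78 for genes of 50 to 200 counts in that group. The log2 fold change in WT HDM against WT PBS was -0.58 (SE 0.61, adjusted p = 0.668, edgeR). Without WT HDM replicate 1 it was -2.0 with an adjusted p of 0.0364, and without WT HDM replicate 2 it was 0.10, so that 1 library decided the value.

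Prmt3, a cytosolic enzyme that methylates the ribosomal protein S2, had 5.12 and 8.73 CPM in WT PBS, 6.52 and 8.24 in WT HDM, 4.19 and 4.86 in TG PBS and 16.0 and 7.51 in TG HDM. The TG PBS libraries were below the other 6. The log2 fold change in TG HDM against TG PBS was 1.40 (SE 0.62, adjusted p = 0.165, edgeR) with no overlap, and 0.73 without TG HDM replicate 1. In TG PBS against WT PBS it was -0.63 (SE 0.61, adjusted p = 0.798).

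Prmt6, a nuclear enzyme that methylates histone H3, had 4.12 and 6.20 CPM in WT PBS, 1.43 and 2.71 in WT HDM, 7.29 and 7.82 in TG PBS and 10.8 and 7.20 in TG HDM. Both WT HDM libraries were below the other 6, at 16 and 27 counts. The log2 fold change in TG HDM against WT HDM was 2.15 (SE 0.75, adjusted p = 0.172, edgeR), the largest among the 9 genes in any comparison. Leaving out single libraries gave values from 1.74 to 2.69. In WT HDM against WT PBS it was -1.32 (SE 0.77, adjusted p = 0.383), and the interaction was 1.57 (SE 0.91, adjusted p = 0.455). Opposite to 32.1% of the exonic bases of Prmt6 lies C130013H08Rik, and without strand, reads in shared bases cannot be told apart. How much of the overlap lies in the coding region was not computed.

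Prmt5, the main enzyme for symmetric dimethylarginine, had 17.5 and 6.86 CPM in WT PBS, 17.8 and 8.03 in WT HDM, 9.88 and 11.1 in TG PBS and 13.9 and 13.6 in TG HDM. The libraries lay 2.55-fold apart in WT PBS and 2.21-fold apart in WT HDM, and the TG libraries lay close together. The log2 fold changes in the 4 comparisons between groups were between -0.22 and 0.42, with adjusted p-values of 0.625 or above. The type III enzyme gene Prmt7 had 4.42 and 1.55 CPM in WT PBS, 4.11 and 5.52 in WT HDM, 8.38 and 2.54 in TG PBS and 10.2 and 5.03 in TG HDM. Its CPM differed 3.31-fold between the TG PBS libraries, and all of its groups except WT PBS and TG HDM overlapped. Its log2 fold change in TG PBS against WT PBS was 0.87 (SE 0.79, adjusted p = 0.777, edgeR), and -0.23 without TG PBS replicate 1.

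**Figure D2:**
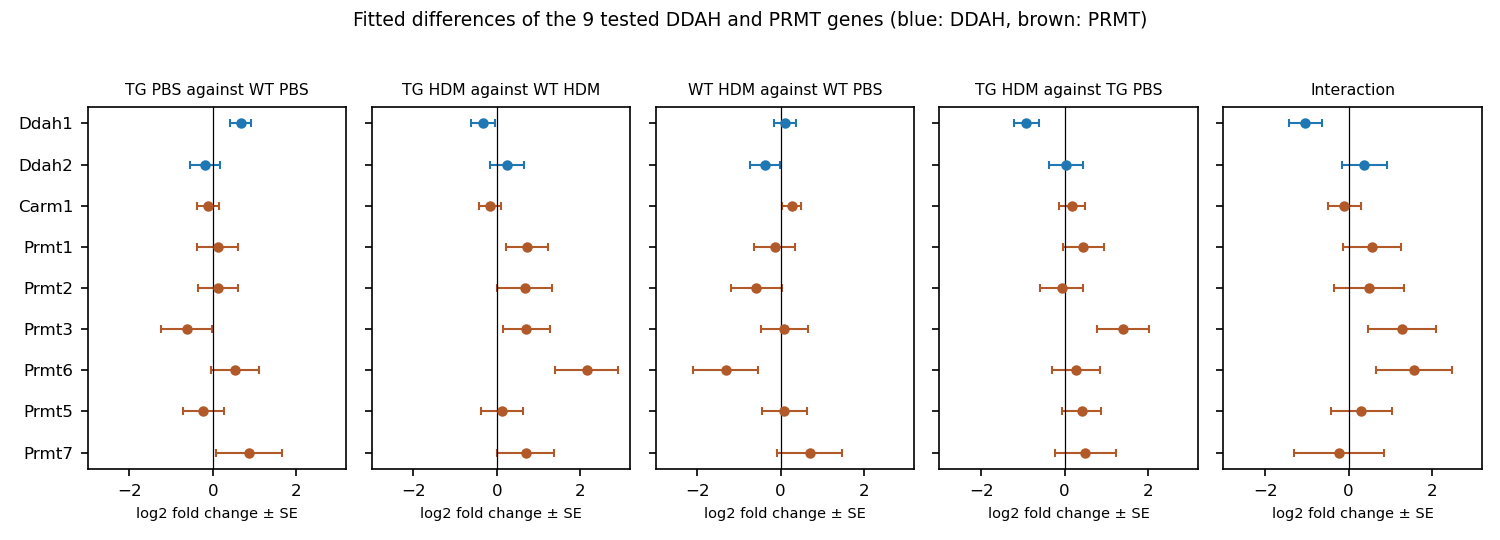
Log2 fold changes (horizontal axis, bars are standard errors) of the 9 tested genes in the 4 comparisons and the interaction, fitted with edgeR. Ddah1 lay above 0 in TG PBS against WT PBS (0.66) and below 0 in TG HDM against TG PBS (-0.91), and Prmt6 stood at 2.15 in TG HDM against WT HDM.

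Across the list, 0 of the 9 tested genes passed the adjusted threshold in each comparison by edgeR, where the share of all tested genes that did was 0.657% in TG PBS against WT PBS, 2.44% in TG HDM against WT HDM, 6.74% in WT HDM against WT PBS, 13.8% in TG HDM against TG PBS and 1.76% in the interaction. DESeq2 called 1 gene (Ddah1) in TG HDM against TG PBS and 0 in the others. It gave no adjusted p for Prmt6 and Prmt7 in TG HDM against WT HDM. An unadjusted p under 0.05 was reached by 1 gene in TG PBS against WT PBS (Ddah1; 9.98% of all genes), 1 in TG HDM against WT HDM (Prmt6; 16.2%) and 0 in WT HDM against WT PBS (19.9%). It was reached by 2 in TG HDM against TG PBS (Ddah1 and Prmt3; 27.7%) and by 1 in the interaction (Ddah1; 14.7%). The shares of the 9 genes were near or below those of all genes.

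The groups did not overlap for 3 of the 9 genes in TG PBS against WT PBS (40.3% of all tested genes), 4 in TG HDM against WT HDM (48.0%), 2 in WT HDM against WT PBS (49.7%) and 3 in TG HDM against TG PBS (56.9%). A positive log2 fold change was found for 7 of the 9 genes in TG HDM against WT HDM, and their median was 0.67 against 0.01 for all tested genes. Between TG HDM and TG PBS, 7 of 9 were positive with a median of 0.27 against 0.03. Over all genes, log2 fold changes were lower for longer transcripts in both comparisons (Spearman's rho across genes -0.281 and -0.331), and the 9 transcripts ran from 1342 to 3764 bases. With the length offset, 5 of 9 were positive in TG HDM against TG PBS with a median of 0.10 (-0.06 for all tested genes), and 6 of 9 in TG HDM against WT HDM with a median of 0.45 (0.00). Without the offset, the medians were 0.12 in TG PBS against WT PBS and 0.09 in WT HDM against WT PBS, and with it they were 0.20 and 0.04.

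The counts are described as reads over coding regions, but RNAs without one, such as Xist, were counted too. Which length is the closer match is thus not known. Levels were compared between genes per kilobase of transcript. In that order the mean over 8 libraries was 14.7 CPM per kilobase for Carm1, 13.8 for Ddah2, 12.3 for Ddah1, 7.18 for Prmt1, 5.01 for Prmt2, 4.58 for Prmt5, 3.05 for Prmt3, 1.95 for Prmt6, 1.5 for Prmt7 and 0 for Agxt2. The ranges over libraries of the first 3 genes overlapped (9.89 to 17.8, 11.1 to 18.2 and 8.87 to 20.4), and so did those of each further pair of neighbours down to Prmt7. The order is thus not resolved between neighbours, whereas Ddah2 stood above Prmt1 (4.80 to 10.9) in every library. Ddah1 lay above 80.0% of all genes on this scale and Prmt7 above 42.7%. With the coding length in place of the transcript length, Ddah1 came first (53.9 CPM per kilobase, against 25.9 for Carm1 and 21.6 for Ddah2). Its transcript is much longer than its coding region. Of the 9 counted genes, 4 held their rank.

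**Figure D3:**
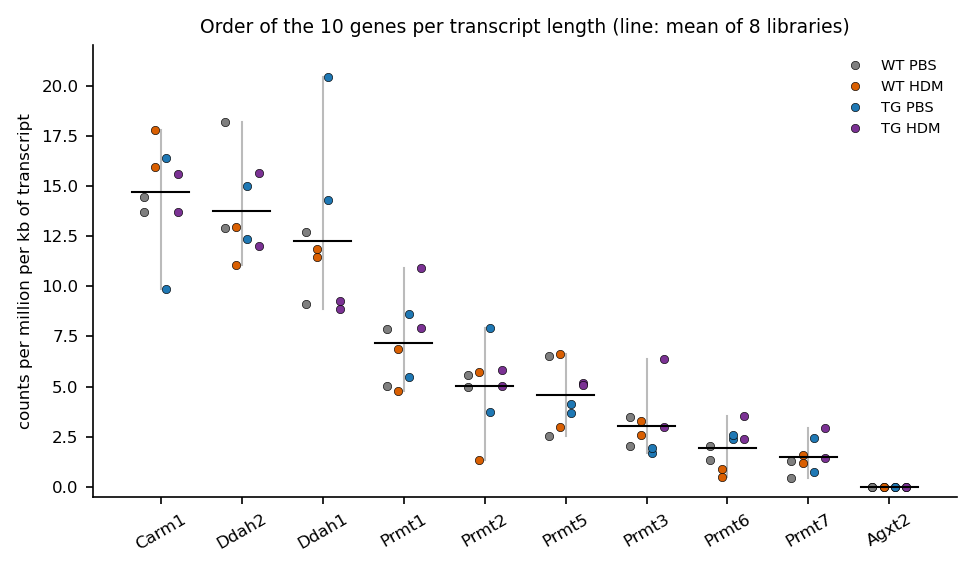
CPM per kilobase of transcript (vertical axis, linear) of the 10 genes in 8 libraries, ordered by the mean (black line). Grey lines span the lowest and highest library. Carm1, Ddah2 and Ddah1 share the top range on this scale, and Agxt2 is at 0. By coding length, Ddah1 came first.

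The summed level of the 5 type I methyltransferases over that of the 2 DDAH genes, per kilobase of transcript within each library, was 1.20 and 1.09 in WT PBS, 1.49 and 1.06 in WT HDM, 0.859 and 1.13 in TG PBS and 1.59 and 1.66 in TG HDM. Both TG HDM libraries were above the other 6. Per kilobase of coding region, also added after seeing the data, the ratio was 1.02 and 1.01 in TG HDM and 0.444 to 0.810 in the other 6. Neither scale corrects for the dependence of log2 fold changes on transcript length, and the ratio was not computed with the length offset. The type I enzyme gene Prmt8 is not in the sum. The ratio is of transcripts and says nothing of enzyme activity or of ADMA, which were not measured in these libraries. Carm1, which overlaps Yipf2, had the highest level of the 5.

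**Figure D4:**
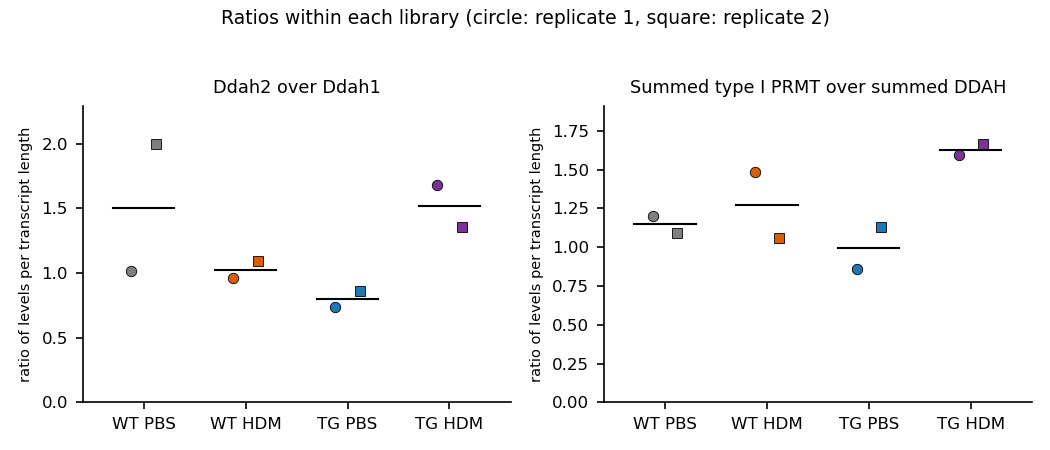
Ratios of levels per transcript length (vertical axes, linear, from 0) within each library of the 4 groups, for Ddah2 over Ddah1 and for summed type I methyltransferases over summed DDAH. Lines are means of 2 libraries. TG HDM lay at 1.59 and 1.66 in the second ratio, above the other 6 libraries, as it did by coding length (1.02 and 1.01). The length offset was not used in either ratio.

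Over the 8 libraries, the log2 levels most like those of Ddah1 among 9550 genes with a mean of at least 10 CPM were those of Msl1 (Pearson r = 0.95), Tulp4 (0.95) and Atf2 (0.94). Those most like Ddah2 were Gmps (0.98), Ranbp6 (0.95) and Heatr3 (0.95). Among the members themselves, Prmt1 and Prmt7 had the highest r (0.75) and Ddah1 and Prmt3 the lowest (-0.77). The libraries share pools in pairs and the genes were picked as the highest, so that these values are descriptions.

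Other genes of the pathway were taken from 6 lists of 54 genes. Their calls rest on few libraries. The 5 calls in TG HDM against WT HDM became 0 without WT HDM replicate 1 or 2, in TG HDM against TG PBS the 13 calls became 1 without TG PBS replicate 1 and 0 without TG PBS replicate 2, and in WT HDM against WT PBS 3 of the 4 calls were lost without WT PBS replicate 2, and Arg1 held. Of the 2 remaining family members, Prmt8, which is known as a neuronal enzyme, had 17.4 and 11.8 CPM in WT PBS, 10.9 and 11.3 in WT HDM, 15.9 and 11.3 in TG PBS and 46.7 and 16.1 in TG HDM. TG HDM replicate 1 was far above the other libraries. Its log2 fold change in TG HDM against WT HDM was 1.54 (SE 0.50, adjusted p = 0.145, edgeR), and it was past the threshold with DESeq2 (adjusted p = 0.0469). Prmt9, a type II enzyme, had adjusted p-values of 0.50 or above in every comparison.

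The partners and regulators of methyltransferases (11 genes) had 0 called in TG PBS against WT PBS, in TG HDM against WT HDM and in WT HDM against WT PBS by edgeR, with 2, 3 and 1 at an unadjusted p under 0.05 (9.98%, 16.2% and 19.9% of all tested genes). Btg1, which binds PRMT1, was the 1 gene called in TG HDM against TG PBS, where 13.8% of all tested genes were. It had 110 and 74.2 CPM in TG PBS and 281 and 293 in TG HDM, and it rose by 1.66 on the log2 scale (SE 0.23, adjusted p = 0.000678, edgeR). In WT mice it had 138 and 123 CPM with PBS and 185 and 154 with HDM (log2 fold change 0.38, adjusted p = 0.213). The interaction for Btg1 was 1.26 (SE 0.28, adjusted p = 0.0251), past the threshold. It was not past it without TG PBS replicate 2 (adjusted p = 0.140), WT HDM replicate 2 (0.0892), WT PBS replicate 1 (0.114) or WT PBS replicate 2 (0.0564), and the call in TG mice was lost without TG PBS replicate 2 (0.0607). The sum of 3 leukocyte markers was 169 and 178 CPM in TG PBS, 656 and 756 in TG HDM, 265 to 293 in WT PBS and 442 to 445 in WT HDM, and its part in the Btg1 levels was not tested.

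Methylarginine and cationic amino acid transport had 9 genes, of which 6 or 7 were tested. The numbers called were 0 in TG PBS against WT PBS (with 1 at an unadjusted p under 0.05, edgeR), 1 in TG HDM against WT HDM, 2 in WT HDM against WT PBS, 2 in TG HDM against TG PBS and 1 in the interaction, beside 0.657%, 2.44%, 6.74%, 13.8% and 1.76% of all tested genes. Slco4c1 is an organic anion transporter known in kidney that carries ADMA. It had 54.5 and 49.4 CPM in WT PBS, 89.8 and 114.5 in WT HDM, 76.7 and 60.5 in TG PBS and 41.8 and 48.9 in TG HDM. Both WT HDM libraries were above all others, and both TG HDM libraries were the lowest. It rose by 0.98 on the log2 scale in WT HDM against WT PBS (SE 0.20, adjusted p = 0.00966, edgeR). Between TG HDM and WT HDM it was lower, with a log2 fold change of -1.13 (SE 0.25, adjusted p = 0.0393), a call that was lost with the length offset (adjusted p = 0.110). The interaction was -1.57 (SE 0.34, adjusted p = 0.0193, edgeR) and stayed past the threshold under 6 of 6 other settings, and in 4 of 8 fits that left out a library. Its adjusted p was 0.0824 without TG PBS replicate 1, 0.0915 without WT HDM replicate 2, 0.0623 without WT PBS replicate 1 and 0.109 without WT PBS replicate 2. The call in WT HDM against WT PBS was lost without WT PBS replicate 2 (adjusted p = 0.0670), and that in TG HDM against WT HDM without either WT HDM library (0.317 and 0.425).

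In the same list, Slc7a2, an arginine transporter that also takes up ADMA, rose with HDM in both genotypes, by 0.67 in WT mice (SE 0.15, adjusted p = 0.0153) and by 0.78 in TG mice (SE 0.22, adjusted p = 0.0349). It had 180 and 145 CPM in WT PBS and 255 and 263 in WT HDM. It had 115 and 124 in TG PBS and 231 and 173 in TG HDM. The call in WT mice was lost without WT PBS replicate 2 (adjusted p = 0.201), and that in TG mice without TG PBS replicate 1 (0.277), TG PBS replicate 2 (0.254) or TG HDM replicate 1 (0.114). Slc3a2, the shared heavy chain of several amino acid transporters, was lower in TG HDM than in TG PBS, at -0.75 (SE 0.20, adjusted p = 0.0285, edgeR), and not called without TG PBS replicate 1 (0.155) or replicate 2 (0.311).

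**Figure D5:**
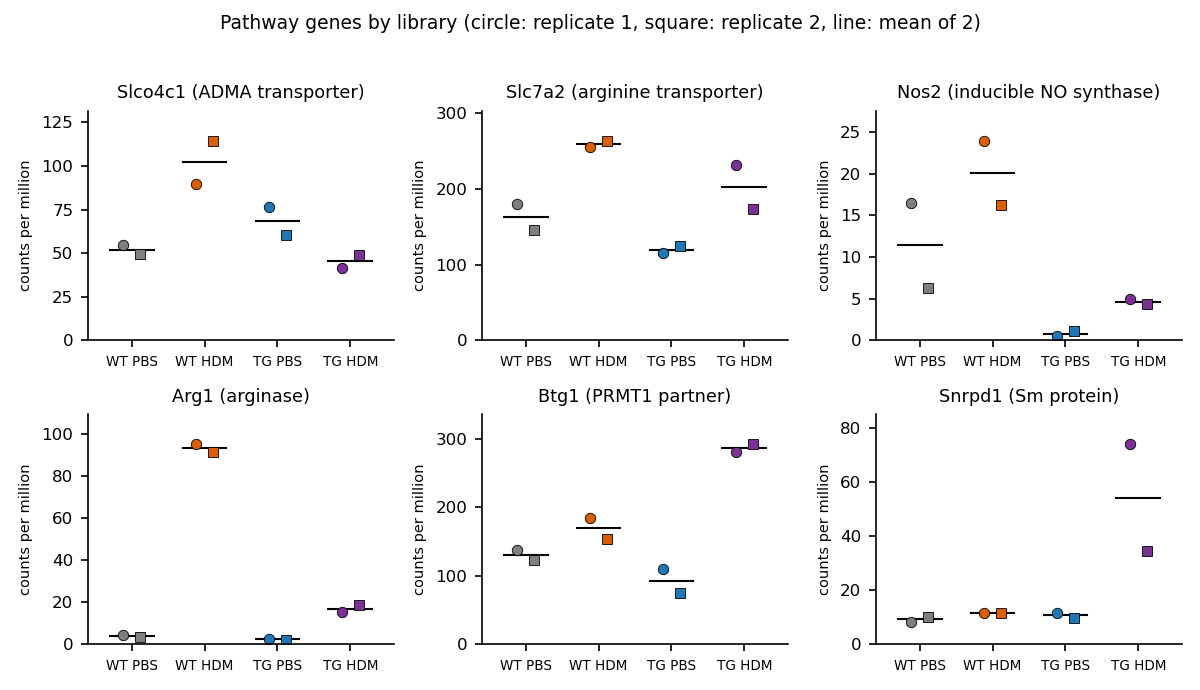
CPM (vertical axes, linear, from 0) of 6 pathway genes in each library of the 4 groups, with lines at the means of 2. Slco4c1 stood highest in WT HDM (89.8 and 114.5) and Btg1 in TG HDM (281 and 293).

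The S-adenosylmethionine cycle (9 genes) supplies the methyl donor of the methyltransferases. Ahcyl2, a relative of the enzyme that removes the S-adenosylhomocysteine by-product, rose by 0.91 in WT HDM against WT PBS (SE 0.20, adjusted p = 0.0119, edgeR), a call that was lost without WT PBS replicate 2 (adjusted p = 0.111). It was the 1 gene of the list called there, where 6.74% of all tested genes were. Mat2a, which makes S-adenosylmethionine, had 272 and 251 CPM in TG PBS and 121 and 156 in TG HDM, with a log2 fold change of -0.90 (SE 0.20, adjusted p = 0.0126), the 1 gene called there (13.8% of all tested genes), and it was not called without TG PBS replicate 1 (0.170) or replicate 2 (0.150). No gene of the list was called in TG PBS against WT PBS, TG HDM against WT HDM or the interaction, with 1, 4 and 3 at an unadjusted p under 0.05 by edgeR (9.98%, 16.2% and 14.7% of all tested genes).

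Among arginine and nitric oxide enzymes (9 genes, 8 tested), Nos2, the inducible nitric oxide synthase that ADMA inhibits, was the only pathway gene called in TG PBS against WT PBS, where 0.657% of all tested genes were. It had 16.5 and 6.28 CPM in WT PBS and 0.499 and 1.16 in TG PBS, a log2 fold change of -3.78 (SE 0.75, adjusted p = 0.0223, edgeR), and it was not called with the replicate block (adjusted p = 0.166) or without WT PBS replicate 1 (0.596). In TG HDM against WT HDM, the log2 fold change of Nos2 was -2.08 (SE 0.50, adjusted p = 0.0544, edgeR). That value was past the threshold with DESeq2 (adjusted p = 0.00387). The study's RT-qPCR found no significant Nos2 difference between WT and TG mice. Arg1, an arginase that shares the substrate of Nos2, rose by 4.62 in WT HDM against WT PBS (adjusted p = 1.80e-07) and by 2.97 in TG HDM against TG PBS (adjusted p = 0.00540). It was lower by -2.44 in TG HDM against WT HDM (SE 0.28, adjusted p = 0.00151), where Oat, which makes glutamate semialdehyde from ornithine, was higher by 1.32 (SE 0.24, adjusted p = 0.0127). The sum of 4 macrophage markers was 428 to 555 CPM in the PBS libraries, 3396 to 4498 in TG HDM and 9061 to 9366 in WT HDM. Most of it was Chil3 (8920 and 9236 in WT HDM, 3266 and 4369 in TG HDM). Cd68 was also higher in WT HDM (117.1 and 100.5) than in TG HDM (76.8 and 77.6). Adgre1 was lower in WT HDM (21.9 and 28.5) than in TG HDM (51.1 and 51.0), and Marco was lower in the HDM than in the PBS libraries. The sum thus does not measure macrophage number, and its part in the levels of these enzymes was not tested. Between TG PBS and TG HDM, 5 of 8 rose beside 13.8% of all tested genes called, namely Arg1, Arg2 (1.71), Ass1 (1.93), Odc1 (1.5) and Oat (1.00), and with the length offset Arg2, Odc1 and Oat were not called.

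The known substrates of methyltransferases among RNA-binding proteins (14 genes) had 2 called in TG HDM against WT HDM, where 2.44% of all tested genes were. Snrpd1, a core Sm protein of spliceosomal particles, had 11.5 and 11.5 CPM in WT HDM and 74.1 and 34.4 in TG HDM, a log2 fold change of 2.28 (SE 0.41, adjusted p = 0.0130, edgeR). Hnrnpa2b1, a splicing regulator, was higher by 0.84 (SE 0.19, adjusted p = 0.0426). Neither was called with the length offset (adjusted p = 0.110 and 0.215), and Hnrnpa2b1 was not called with RLE size factors (0.0536). After HDM in TG mice 4 rose (13.8% of all tested genes were called), namely Snrpd1 (2.39), Lsm4 (1.96), Hnrnpa2b1 (1.10) and Hnrnpa1 (1.08), and with the length offset the call held for Snrpd1 (adjusted p = 0.0482). Over all 6 lists, 1 of 51 tested genes was called in TG PBS against WT PBS, 5 of 50 in TG HDM against WT HDM, 4 of 50 in WT HDM against WT PBS, 13 of 50 in TG HDM against TG PBS and 2 of 51 in the interaction, beside 0.657%, 2.44%, 6.74%, 13.8% and 1.76% of all tested genes. The median log2 fold changes of the lists together were 0.05, 0.41, 0.19, 0.52 and 0.44, against 0.00, 0.01, 0.02, 0.03 and 0.00 for all tested genes. With the length offset the list medians were 0.12, 0.41, 0.09, 0.23 and 0.36.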

How the data were processed

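RNA of 4 mice per group was pooled and sequenced as 2 libraries with SPIA amplification and single reads of 50 cycles. The authors aligned reads to mm10 (GRCm38) with TopHat and deposited raw counts of 23469 genes, described as reads in coding regions. Of the identifiers, 23372 were named from RefSeq, and 21145 had a GENCODE M21 transcript length. Each comparison was tested on its own 4 libraries with edgeR 4.0.16 (R 4.3.3, quasi-likelihood, TMM, filterByExpr with a count minimum of 10, Benjamini-Hochberg over all genes tested, threshold 0.05), and the interaction was tested on all 8. SE is the log2 fold change divided by the square root of F. Log2 CPM had a prior count of 2. The fits were tested on simulated counts. Alternatives were DESeq2 1.42.0, RLE scaling, no filter, all 8 libraries in one fit, a replicate block, library sizes without Rn45S and haemoglobin genes, a gene length offset (loess, span 0.5) and leaving out each library. Genes named were all members, the called genes of the pathway lists (at most the 6 smallest adjusted p per list), the 3 most alike Ddah1 and Ddah2, and sex markers. Prmt8 and Prmt9 were named as the rest of the family, after their values were seen. Members and lists were chosen with earlier results of these data known. Total counts of 5694928 to 11929374 set the counting precision.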

Additional observations from a re-analysis of the deposited data

Results flagged for a closer look

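The genotype difference of Ddah1 pointed in opposite directions under the 2 treatments. The log2 fold change of TG against WT was 0.66 in PBS-treated mice and -0.32 in HDM-treated mice. Both TG PBS libraries lay above both WT PBS libraries, and both TG HDM libraries lay below both WT HDM libraries. Groups without overlap were common, at 40.3% of all tested genes under PBS and 48.0% under HDM. The interaction of -1.04 had an adjusted p of 0.216 by edgeR and was not past the threshold, so that a difference between the treatments was not shown. With each library left out in turn the interaction lay between -1.30 and -0.75, with adjusted p-values of 0.204 or above. The higher value under PBS rests in part on TG PBS replicate 1, without which it was 0.39.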

How the results depend on the processing

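No SD or p-value here covers variation between mice, and depth was lowest in TG HDM replicate 1. With all libraries kept, 306 log2 fold changes of members were recomputed under other settings. Of these, 296 kept their direction and side of the threshold, 4 (Ddah1 in TG HDM against TG PBS) passed it and 6 changed sign. Prmt6 and Prmt7 had no adjusted p with DESeq2 in TG HDM against WT HDM and were taken as not past it. With the gene length offset, Ddah2 turned to -0.091 in TG HDM against WT HDM, to -0.54 in TG HDM against TG PBS and to -0.0003 in the interaction, and Prmt1 turned to -0.049 in TG HDM against TG PBS. In that last comparison Ddah2 was -0.0017 with DESeq2, and Prmt2 was 0.025 with the replicate block. The number of members called there was 1 rather than 0 with DESeq2, without the low-count filter, with the replicate block and with all 8 libraries in one fit. Of 173 values of called pathway genes, 162 kept their call under other settings and 11 lost it. By coding length, 4 of the 9 counted genes kept their rank.

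The count of all genes called in TG PBS against WT PBS (98) was 222 with DESeq2, 306 without the filter and 45 with the replicate block, where the pathway count was 0. In TG HDM against WT HDM (370) it was 909 with DESeq2, 1055 without the filter, 625 with the block, 771 with all 8 libraries and 164 with the length offset, and the pathway count (5) was 11 with DESeq2, 9 without the filter, 9 with all 8 libraries and 3 with the length offset. In WT HDM against WT PBS (1020) it was 1588 without the filter. In TG HDM against TG PBS the pathway count (13) was 7 with the length offset. In the interaction (279) it was 688 with DESeq2 and 675 without the filter, and the pathway count (2) was 7, 6 and, with the block, 4. Same-numbered replicates did not deviate together (correlations of deviations between -0.021 and 0.017), so the numbers do not pair libraries. The cause of these shifts was not tested.

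Leaving out a library left the lone library of its group to be taken as varying like the others. Of 216 such values of members, 182 kept their direction and side, 33 changed sign, and 1 (Prmt2 in WT HDM against WT PBS) passed the threshold, so that the count of members called was 0 to 1 there. The log2 fold changes whose sign changed had these lowest and highest values. In TG PBS against WT PBS these were Ddah2 -0.41 to 0.074, Prmt1 -0.24 to 0.48, Prmt2 -0.51 to 0.59, Prmt5 -0.75 to 0.61, Prmt7 -0.23 to 1.81 and Carm1 -0.51 to 0.22. In TG HDM against WT HDM these were Prmt2 -0.022 to 2.06 and Prmt5 -0.32 to 0.80. In WT HDM against WT PBS these were Ddah1 -0.13 to 0.35, Prmt1 -0.44 to 0.21, Prmt2 -2.0 to 0.096, Prmt3 -0.24 to 0.51 and Prmt5 -0.60 to 0.91. In TG HDM against TG PBS these were Ddah2 -0.19 to 0.21, Prmt2 -0.52 to 0.57, Prmt6 -0.067 to 0.53, Prmt7 -0.12 to 1.59 and Carm1 -0.15 to 0.59. In the interaction these were Prmt2 -0.20 to 1.90, Prmt5 -0.52 to 0.98, Prmt7 -1.16 to 0.88 and Carm1 -0.41 to 0.31. Of 108 values of called pathway genes, 54 lost the call. Over these fits the count of all genes called was 75 to 432 in TG PBS against WT PBS (pathway genes 0 to 2), 6 to 1595 in TG HDM against WT HDM (0 to 16), 652 to 1661 in WT HDM against WT PBS (2 to 6), 277 to 2676 in TG HDM against TG PBS (0 to 16) and 138 to 721 in the interaction (0 to 8).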
